A study of Danio rerio with 12 samples.

Results

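Zebrafish embryos labelled ddx3xb-/- and collected at 6 hours post fertilization (hpf) were compared with younger ddx3xb+/+ embryos collected at 4 hpf. The comparison used 4 of the 12 samples of the study, 2 in each group, and kept the 15440 of 33737 genes whose RPKM (a read count scaled to the length of the gene and the depth of the library) was at least 1 in the table of either group. The study sequenced polyadenylated RNA of whole embryos of both genotypes at 2, 4 and 6 hpf. The genotype labels read wild type for controls and Ddx3xb-/Ddx3xb- for mutants, and no treatment, promoter or transgene is named. The labels do not give the lesion, the parents or the number of embryos in a sample. The question is what sets an older mutant embryo apart from a younger control, beyond a delay. Genotype and age both differ between the groups, so their shares in any difference cannot be told apart, and no control was sampled between 4 and 6 hpf.

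Ddx3x proteins are DEAD-box RNA helicases that unwind RNA and take part in translation initiation. A zebrafish embryo first lives on RNA stored in the egg, then switches on its own genome and clears the stored RNA, a handover called the maternal-to-zygotic transition. Soon after, its outer enveloping layer becomes a keratin-rich epithelium, its yolk syncytial layer takes up the feeding of the embryo, and Nodal, BMP and Fgf signals set out the germ layers as gastrulation begins.

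Each table holds 1 value for a group of 2 samples, so every level below is the authors' group RPKM without a standard deviation, no p-value is given, and a gene is counted as higher or lower where log2(RPKM + 1) differed by at least 1. That scale understates the differences of low genes. Low values fall on a grid from which the relative depth of the libraries can be read, assuming that each table is a plain mean of 2 libraries. The common factor that turns it into reads was sought in a range set beforehand, so only the ratios between libraries are recovered. With the factor found there, the control libraries at 4 hpf held 53.8 and 50.3 M reads and the mutant libraries at 6 hpf 73.0 and 41.5 M. The range over all 12 was 37.8 to 73.0 M. Reads recovered in the same way, and with the same factor, gave the spread between replicates. They covered 3083 genes with 20 to 150 reads summed over the 2 libraries of each group and at least 1 in every library. The RPKM filter was not applied to these genes. The log2 ratio between the libraries of a group had a scaled median absolute deviation of 0.77 in controls at 4 hpf and 0.94 in mutants at 6 hpf, against 1.05 for the ratio between the groups. The libraries of a group differed by at least 1 for 22.7% of these low genes in controls and 31.0% in mutants, and the groups for 34.7%. The ratio between groups is one of means of 2 libraries, which spread less than single libraries, so these shares cannot be compared directly. Nothing was added to the values before these ratios were taken. They are therefore larger than differences of log2(RPKM + 1), the scale of all other counts. Of the 1069 genes past 1 between the groups, 1001 had both libraries of one group above both of the other. The same library values had picked these genes, so a high count was largely built in and is no support for them. The share over all 3083 genes was not computed. The spread of better expressed genes is not known. Since the embryos were taken whole, fewer cells of a type and less RNA per cell cannot be told apart, and neither can RNA amount and poly(A) tail length.

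The targeted gene, ddx3xb (ENSDARG00000005774), had an RPKM of 48.8 in mutants at 6 hpf and of 318 in controls at 4 hpf. In the other tables it was at 325 in controls at 2 hpf, 194 in controls at 6 hpf, 0.70 in mutants at 2 hpf and 18.8 in mutants at 4 hpf. The library group labelled mutant at 6 hpf thus held less of this RNA than any control group, but far more than the mutants at 2 hpf. Its paralog ddx3xa (ENSDARG00000020573) was at 118 in mutants at 6 hpf and 117 in controls at 4 hpf and differed by 0.01 on the log2 scale. Controls at 6 hpf held 32.1, so for this gene the older mutant had the level of the younger control. Summed markers of the enveloping layer, the yolk syncytial layer, mesoderm, neuroectoderm and germ cells were present in both groups. Those of the enveloping layer were at 113 in controls at 4 hpf and 2181 in mutants at 6 hpf. The summed germ cell markers were at 199 and 163. DDX4 made up most of both sums, at 106 and 120, while NANOS3, DND1, DAZL and PIWIL1 were each lower in the mutants. The muscle marker found was at 0.011 and 0.082, near 0 in both.

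The mutant at 6 hpf was higher than the control at 4 hpf for 1776 genes, 11.5% of those kept, and lower for 2737, 17.7%. The other 10927 genes, 70.8%, differed by less than 1, and the median difference over all kept genes was -0.35. The count depended on the scale of the tables. After rescaling by a trimmed mean of log ratios, which raised the mutant values at 6 hpf by 0.42 log2, 2678 genes were higher and 1249 lower, with a median of -0.01. Quantile normalization gave 2122 higher and 1780 lower. The share of higher genes among those counted was thus 39.4% as deposited, 68.2% rescaled and 54.4% after quantile normalization. Controls themselves moved more between 4 and 6 hpf. Against the same 4 hpf table, controls at 6 hpf were higher for 2402 genes, 15.6%, and lower for 5994, 38.8%. The median was -0.64. This balance too depended on the scale: rescaled, 3958 were higher and 3952 lower, and after quantile normalization 3259 and 4436. Genes that reached 1 RPKM only in controls at 6 hpf did not pass the filter and are not counted.

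**Figure D1:**
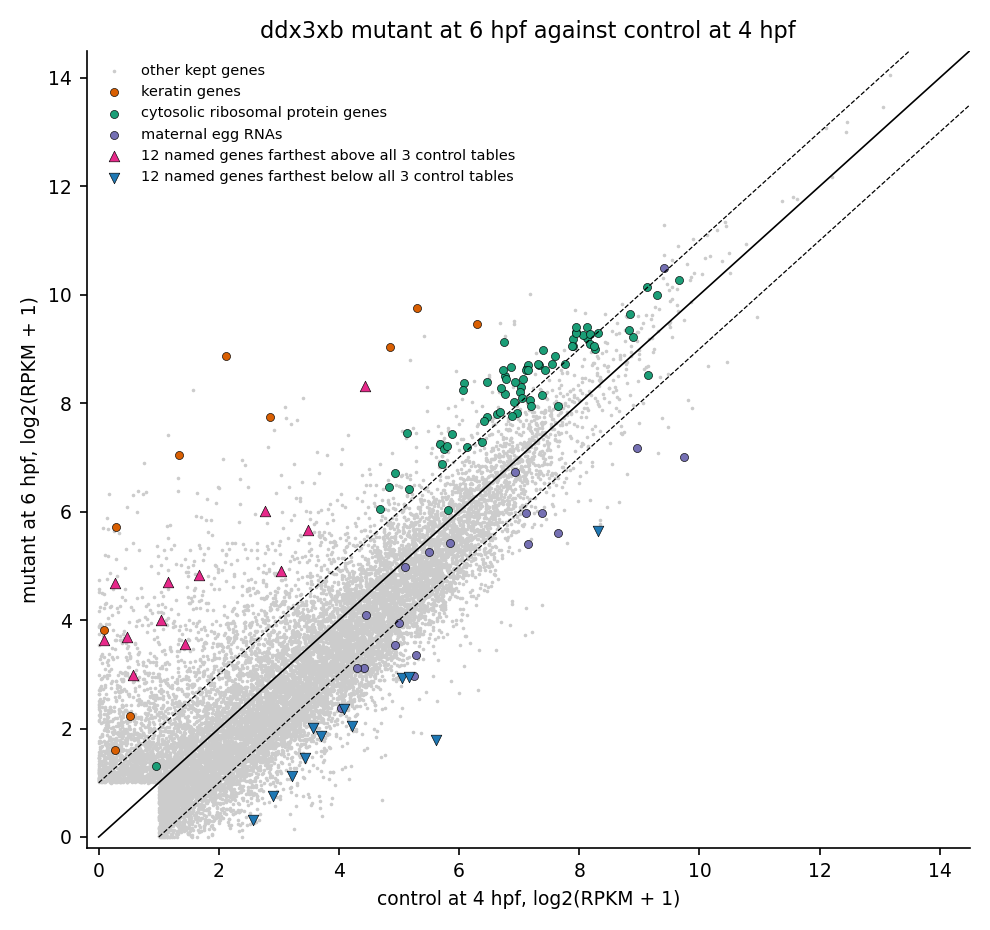
Group values of the kept genes as log2(RPKM + 1), controls at 4 hpf on the x axis and mutants at 6 hpf on the y axis, with the line of equality and dashed lines at a difference of 1. Keratin genes lie far above the dashed line (krt5 at 3.32 and 465 RPKM), most ribosomal protein genes lie above it in a tight band, and maternal egg RNAs lie mostly below.

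The 15 named genes with the largest differences in favour of the older mutant were at or below 3.32 RPKM in the younger control. krt5, a keratin, was at 3.32 in controls at 4 hpf and 465 in mutants at 6 hpf, or 6.75 on the log2 scale. A gene carrying the symbol afp4, which 2 IDs share, was at 1.22 and 170 (6.26). Both genes had reached higher levels in controls at 6 hpf, 965 and 673. NR0B2, a nuclear receptor that represses transcription, was at 0.48 and 78.2 (5.74), and pnhd, the secreted protein Pinhead, was at 0.57 and 82.0 (5.72). fbp1b, a fructose-bisphosphatase of gluconeogenesis, was at 0.72 and 81.3 (5.58). LCP1, which bundles actin, was at 0.56 and 62.3 (5.34), and apoc2, an apolipoprotein, at 0.071 and 35.6 (5.10). Among the 15 highest named genes, the mutants at 2 and 4 hpf held at most 2.22 RPKM, the value of krt5 at 4 hpf, so these RNAs were new in the mutant at 6 hpf at the sampled ages. ponzr5 at 51.0, FA2H, a fatty acid hydroxylase, at 66.8, and hsd17b14, a steroid dehydrogenase, at 79.0 came within 0.21 log2 of the controls at 6 hpf, which held 56.7, 77.4 and 86.6.

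Genes of the enveloping layer were higher as a group. Of 20 listed genes found, 19 passed the RPKM filter, and 14 of these were higher and 0 lower, with a median log2 difference of 3.17 beside -0.35 over all kept genes. Under rescaling the counts were again 14 and 0. All 10 keratin genes that passed the filter, of 20 found, were higher, with a median of 4.32, or 0.78 over the genes left when the filter was dropped. In this and the following lists a member near 0 at 4 hpf could pass through the older table alone and then had to be higher, so the counts describe genes that were on at 6 hpf. krt4 was at 38.4 in controls at 4 hpf and 860 in mutants at 6 hpf, krt8 at 27.7 and 527, and krt92 at 1.53 and 131. In mutants at 4 hpf the same genes were at 3.98, 3.84 and 0, below the controls of that age. evpla, encoding an envoplakin of cornified borders, was at 0.12 and 35.1. Keratin genes together made up 0.577% of all RPKM in mutants at 6 hpf, 0.0322% in controls at 4 hpf and 1.09% in controls at 6 hpf. Transcription factors of this layer differed little: grhl3 was at 85.5 and 63.1, and klf17 at 119 and 93.6.

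Claudins, which seal epithelial cells to each other, went in both directions. Of 16 that passed the filter, of 32 found, 5 were higher and 3 lower. Over all kept genes 11.5% were higher and 17.7% lower, so the share of lower claudins was near the general one. The epithelial cldne was at 43.1 in controls at 4 hpf and 316 in mutants at 6 hpf, cldn23.1 at 7.18 and 101, and cldnf at 0.56 and 20.4. These levels were close to those of controls at 6 hpf, which held 350, 99.2 and 17.6. In the other direction stood claudins that were abundant in the early embryo. cldnd was at 852 in controls at 4 hpf and 127 in mutants at 6 hpf, and cldng at 445 and 102. Controls at 6 hpf had less still, 26.2 and 17.0.

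**Figure D2:**
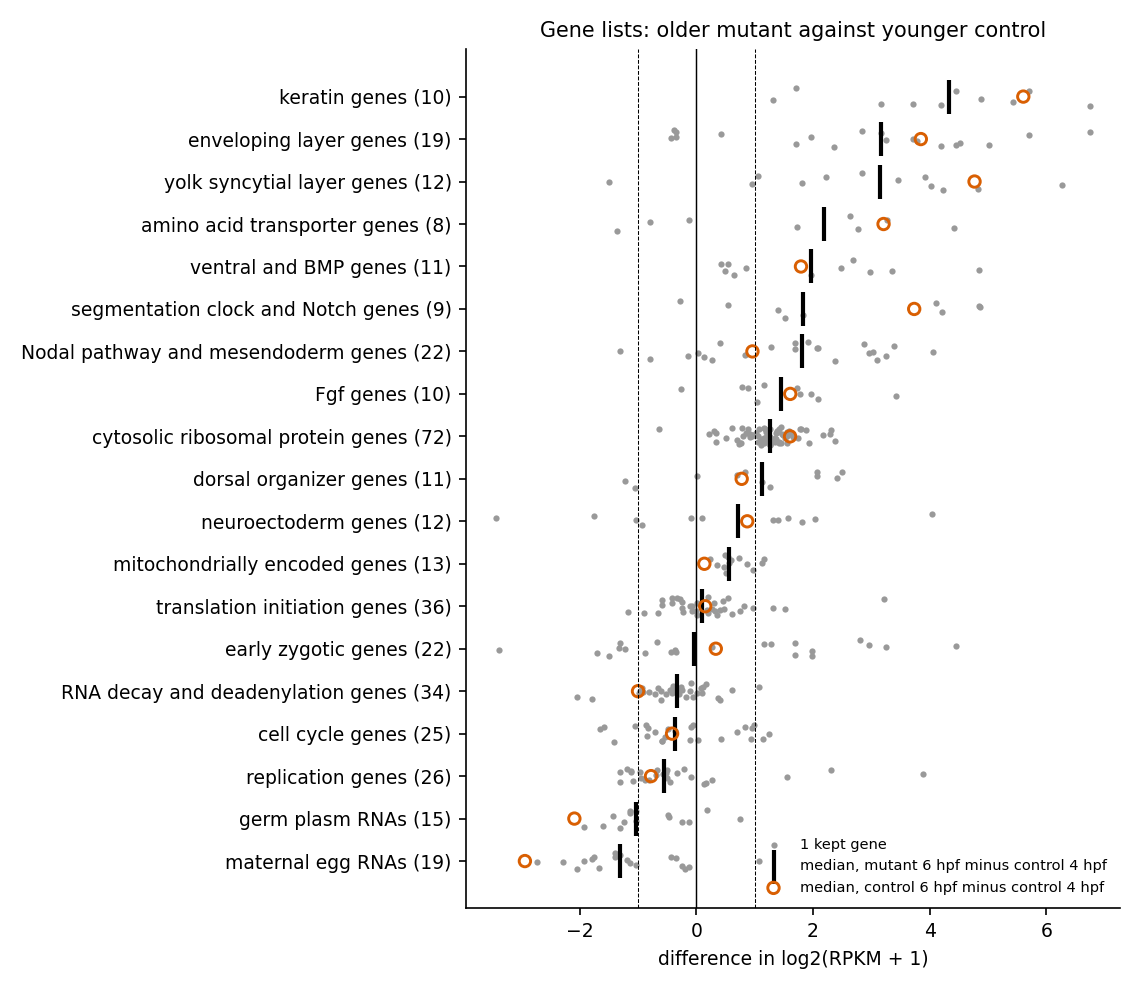
Differences in log2(RPKM + 1) by gene list, with the number of kept genes in brackets; grey points are single genes (mutant at 6 hpf minus control at 4 hpf), black bars their median, and open circles the median of control at 6 hpf minus control at 4 hpf. Keratins have a median of 4.32 and maternal egg RNAs one of -1.31, and for the Nodal list the bar lies to the right of the circle.

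The yolk syncytial layer, a nucleated rim of the yolk cell that passes nutrients to the embryo, was uneven. Of 21 listed genes found, 12 passed the filter, and 10 were higher and 1 lower, with a median of 3.15. Members near 0 at 4 hpf could pass through the older table alone, and without the filter the median was 1.01. Its regulators and some enzymes were strongly present. HNF4A, a transcription factor of yolk and liver metabolism, was at 1.16 in controls at 4 hpf and 34.3 in mutants at 6 hpf, next to 35.7 in controls at 6 hpf. ctsll, a cathepsin L-like protease, was at 7.59 and 244, and the lipid carrier apoeb at 144 and 1029. The layer's homeobox gene mxtx1 was at 13.2 and 65.2 and exceeded the 38.1 of controls at 6 hpf. The related mxtx2, which controls in part the identity of this layer, was lower at 91.2 and 31.6, and controls at 6 hpf held 3.58.

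Several nutrient-handling genes that were abundant in controls at 6 hpf had hardly appeared in mutants of that age. apoa1a, the main protein of high-density lipoprotein, was at 0.32 in controls at 4 hpf and 1.57 in mutants at 6 hpf, where controls at 6 hpf held 89.2. pck2, a phosphoenolpyruvate carboxykinase, was at 0.38 and 2.33 against 149, and BHMT, which methylates homocysteine, at 0.79 and 2.16 against 63.8. On the log2 scale these mutant values covered 15.8%, 18.8% and 15.9% of the way from the 4 hpf to the 6 hpf control. tfa, a transferrin that carries iron, was at 0.59 and 4.57 against 68.6, which is 33.2% of the way. slc7a2, a carrier of basic amino acids, was at 1.88 in controls at 4 hpf, 0.13 in mutants at 6 hpf and 25.1 in controls at 6 hpf, so that the older mutant held less than the younger control. Other amino acid transporters behaved differently: SLC7A8 was at 8.24 and 196, and SLC38A4 at 0.16 and 10.2. Of the 8 transporters that passed the filter, of 14 found, 5 were higher and 1, slc7a2, was lower, with a median of 2.18. Without the RPKM filter that median was -0.046, since the members below it sit near 0.

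Nodal signalling induces mesoderm and endoderm, and the older mutant was higher than the younger control for most genes of its list. Of 23 listed genes found, 22 passed the filter, and 14 were higher and 1 lower, with a median of 1.81, where the same genes had a median of 0.96 in controls at 6 hpf against 4 hpf. Under rescaling 15 were higher and 0 lower. The homeobox gene mixl1, an immediate target of Nodal, was at 5.81 in controls at 4 hpf and 63.8 in mutants at 6 hpf, with 0.37 and 6.65 in controls at 2 and 6 hpf. sebox, another homeobox gene of mesendoderm, was at 1.06 and 14.9, with 1.91 in controls at 6 hpf. GSC, the organizer gene goosecoid, was at 15.6 and 68.8, with 27.5 in controls at 6 hpf. lft2, a Lefty protein that inhibits Nodal, was at 7.03 and 41.0, with 16.8 in controls at 6 hpf. In all 4 genes the mutants at 4 hpf, at 1.94, 0.16, 6.96 and 5.23, lay below the controls of that age. On the deposited scale the mutants at 6 hpf lay above all controls by more than 1 log2, as did 1.16% of all kept genes. Rescaling raised controls at 6 hpf by 0.72 log2 and mutants at 6 hpf by 0.42, which narrowed this distance. It left GSC and lft2 near the threshold, and mixl1 and sebox at 2.86 and 2.34.

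The ligand ndr1, a Nodal, was at 11.9 in controls at 4 hpf and 12.1 in mutants at 6 hpf, while controls at 6 hpf held 1.68. Its co-receptor tdgf1 was at 163 and 197, and the transcription factor foxh1, which carries Nodal signals to DNA, at 78.3 and 86.4. The pathway's ligand, co-receptor and factor thus stood at the level of the younger control, and several of its targets above it. Mesoderm genes were mixed. tbx16, a T-box factor of paraxial mesoderm, was at 55.1 and 179 with 132 in controls at 6 hpf, whereas msgn1, which acts in the same tissue, was at 0.76 and 14.0 with 125. mespaa and mespab, factors of segmenting and heart mesoderm, were at 6.19 and 6.51 in mutants at 6 hpf, against 24.0 and 30.3 in controls of that age. aplnrb, an apelin receptor of migrating mesendoderm, was the 1 lower member, at 121 in controls at 4 hpf and 48.1 in mutants at 6 hpf.

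Endoderm genes were higher in 4 of 6 cases and lower in none, with a median of 1.82. GATA5, a zinc-finger factor of endoderm and heart, was at 2.44 in controls at 4 hpf and 56.3 in mutants at 6 hpf, next to 32.4 in controls at 6 hpf. foxa3 was at 8.02 and 87.3, next to 73.0. FOXA2, a related factor of axial midline and endoderm, was at 0.48 and 6.84, next to 19.2, so it lay well short of the older control. Organizer genes, which act on the dorsal side, numbered 11 past the filter of 12 found, with 6 higher and 2 lower. Rescaled, 8 were higher and 0 lower, with a median of 1.53. chrd, the BMP antagonist Chordin, was at 13.8 and 61.4, and lhx1a at 6.03 and 38.9, above the 20.3 of controls at 6 hpf. The lower members were dharma, an early organizer homeobox gene, at 11.1 and 4.19, and CYP26A1, which degrades retinoic acid, at 57.2 and 27.1. Controls at 6 hpf held 81.0 of CYP26A1, so it was below both neighbouring controls.

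**Figure D3:**
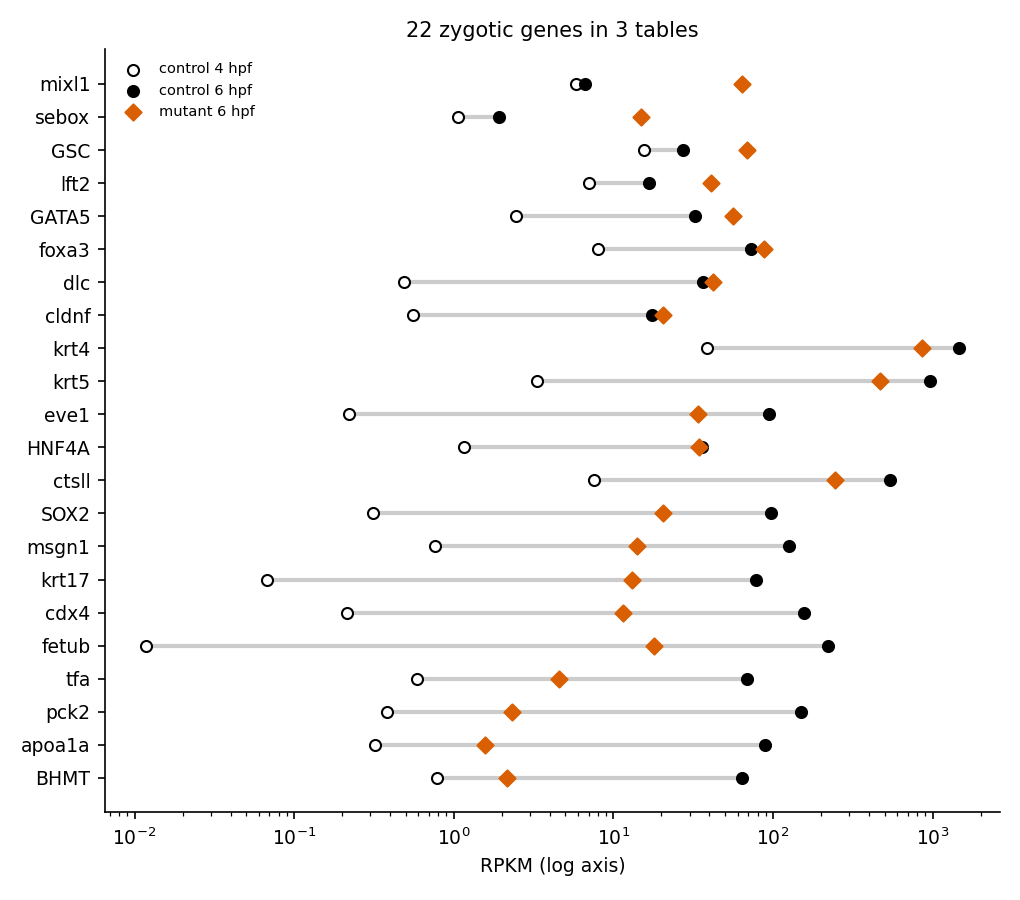
RPKM of 22 zygotic genes on a log axis in controls at 4 hpf (open circles), controls at 6 hpf (filled circles) and mutants at 6 hpf (diamonds). The genes were picked after their values were seen. In the upper rows the diamond lies to the right of both controls (mixl1 63.8), and in the bottom rows near the younger control (apoa1a 1.57). In the middle rows it lies near the older control for some genes (HNF4A 34.3 and 35.7) and well short of it for others (msgn1 14.0 and 125).

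BMP signals set ventral fate, and the genes of that list were higher in 6 of 11 cases and lower in 0, with a median of 1.97. The ligand bmp7a was at 11.6 in controls at 4 hpf and 48.4 in mutants at 6 hpf, and BMP4 at 0.059 and 4.93. ID3, a transcriptional target of BMP, was at 8.47 and 59.9, and eve1, a ventral homeobox gene, at 0.22 and 34.0. cdx4, a caudal-type factor of the tail bud, was at 0.21 and 11.5, where controls at 6 hpf held 156. The ligand had therefore reached the level of the older control, 42.9, and the posterior factor had not.

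Of 10 Fgf pathway genes past the filter, of 11 found, 7 were higher and 0 lower, with a median of 1.45. FLRT3, a membrane partner of Fgf receptors, was at 1.74 and 28.5, and the feedback inhibitor SPRY2 at 5.66 and 25.1. The receptor fgfr4 differed by 0.79, at 30.5 and 53.4. Notch and segmentation clock genes were higher in 7 of 9 cases and lower in none, with a median of 1.83, or 0.55 without the filter. The clock genes her1, at 0.37 and 38.9, and her7, at 1.31 and 38.7, and the Notch ligand dlc, at 0.49 and 41.9, were the largest, and stood near the 57.0, 49.7 and 36.3 of controls at 6 hpf. ripply1, which ends segmental gene activity, was at 0.045 and 2.71, well under the 12.9 of those controls.

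Neural genes pointed both ways. Of 12 that passed the filter, of 20 found, 6 were higher and 3 lower, with a median of 0.71. Over all kept genes the shares were 11.5% and 17.7%. SOX2, a factor of neural progenitors, was at 0.31 in controls at 4 hpf and 20.6 in mutants at 6 hpf, and otx2a, of forebrain and midbrain, at 2.86 and 14.9. Controls at 6 hpf held 97.0 and 62.8. The relative SOX3 was at 77.1 and 230, past the 188 of the older control as deposited. Rescaling raised controls at 6 hpf by 0.72 log2 and mutants at 6 hpf by 0.42, which takes up about all of this excess. The gene sox19a differed by 1.81, near the older control at 297. her5, a hairy-related repressor, was at 148 and 12.8, and rx3, an eye field gene, at 3.03 and 0.20. For both, controls at 6 hpf were lower too, at 5.91 and 0.14.

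Most listed RNAs stored in the egg were lower in the older mutant, and their median difference was smaller than in controls of its own age. Of 19 listed maternal egg RNAs, 13 were lower and 1 higher, with a median of -1.31, beside -2.94 for controls at 6 hpf against 4 hpf. Rescaled, 7 were lower, 1 was higher and the median was -0.94. BTG4, an adaptor that brings the deadenylase to maternal RNA, was at 200 in controls at 4 hpf and 47.8 in mutants at 6 hpf. MOS, the kinase that holds the egg in meiosis, was at 37.2 and 6.81, and cth1, a zinc-finger protein, at 495 and 143. Controls at 6 hpf held 6.16, 1.45 and 27.9 of these RNAs. buc, the Bucky ball organizer of germ plasm, was at 138 and 61.7, with 6.13 in controls at 6 hpf. In mutants at 4 hpf BTG4 and buc were still at 262 and 246, above the controls of that age. The 1 higher member, YBX1, encodes a Y-box RNA-binding protein and was at 681 and 1439, with 2452 in controls at 6 hpf. Summed, the list took 0.642% of all RPKM in controls at 4 hpf, 0.429% in mutants at 6 hpf and 0.542% in controls at 6 hpf, and YBX1 made up most of the last sum.

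Germ plasm RNAs, which are inherited by the future germ cells, were lower in 9 of 15 cases and higher in none, with a median of -1.04. Under rescaling the counts were 3 lower and 1 higher, with a median of -0.64. DND1, which shields germ cell RNA, was at 22.5 and 8.95, and NANOS3 at 35.0 and 15.4. DDX4, the germ cell helicase Vasa, was instead at 106 in controls at 4 hpf and 120 in mutants at 6 hpf, with 41.8 in controls at 6 hpf. Genes of RNA decay and deadenylation, which in controls were lower at 6 than at 4 hpf in 17 of 34 cases, were lower in 2 cases and higher in 1 in the older mutant, with a median of -0.34 that lay next to that of all genes. CNOT8, a deadenylase subunit, was at 281 and 147, with 51.4 in controls at 6 hpf.

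Factors that activate the embryo's genome were within 1 log2 of the younger control or above it, apart from nanog. nanog was at 1126 in controls at 4 hpf and 412 in mutants at 6 hpf, with 39.8 in controls at 6 hpf. pou5f3 was at 405 and 626, with 619 in controls at 6 hpf. sox19b, stored in the egg, was at 160 and 106, with 29.7 in controls at 6 hpf. Of 9 such genes, 3 were higher and 1 lower, with a median of 0.42.

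Early zygotic genes, which are among the first the embryo transcribes, went both ways. Of 22 listed genes that passed the filter, of 23 found, 10 were higher and 6 lower, with a median of -0.04. Over all kept genes the shares were 11.5% and 17.7%. znf1089, a zinc-finger gene, was at 0 in controls at 2 hpf, 136 at 4 hpf and 2.13 at 6 hpf, and in mutants at 0.010, 62.2 and 12.2. inka1a was at 213 in controls at 4 hpf and 13.2 at 6 hpf, with 58.9 and 64.5 in mutants of those ages. vgll4l, a transcriptional cofactor, was at 110 and 14.0 in controls and 23.3 and 43.6 in mutants, and blf, a zinc-finger gene, at 193 and 22.1 in controls and 58.5 and 104 in mutants. Apart from znf1089, these RNAs were highest at 4 hpf in controls and at 6 hpf in mutants. In no mutant table did any of the 4 reach the 4 hpf level of controls.

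Named genes with the lowest values held a further kind. SMIM13, a small membrane protein, was at 48.2 in controls at 4 hpf and 2.47 in mutants at 6 hpf, or -3.83 on the log2 scale. YAE1, a factor in the maturation of an iron-sulfur protein, was at 36.7 and 2.82 (-3.30), and ADCY8, an adenylyl cyclase, at 12.2 and 1.16 (-2.62). In mutants at 2 hpf these RNAs were already at 2.35, 1.97 and 0.66, where controls had 49.4, 47.1 and 21.4. For such genes the older mutant had about the level of the youngest mutant. Controls at 6 hpf held 28.5, 4.13 and 1.33, so for YAE1 and ADCY8 the older mutant was also near the control of its own age.

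Genes of the cytosolic ribosome were higher almost as a block. Of 73 found, 72 passed the filter and 52 were higher and 0 lower, with a median of 1.26. The counts were 66 and 0 under rescaling and 40 and 0 after quantile normalization. RPS2 was at 107 in controls at 4 hpf and 559 in mutants at 6 hpf, and RPLP0 at 67.0 and 331, while RPL12 was at 568 and 366. Ribosomal protein genes took 2.69% of all RPKM in controls at 4 hpf, 5.45% in mutants at 6 hpf and 7.02% in controls at 6 hpf. In mutants at 2 and 4 hpf the share was already 3.34% and 3.50%, above the 2.09% and 2.69% of controls. Ribosomal protein genes have near-identical copies between which reads can be split, so single members are less certain than the list.

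RNAs encoded by the mitochondrial genome were above the younger control in all 13 genes, by a median of 0.56, and 2 of them, MT-ND3 and mt-atp8, by more than 1. MT-ND3, a subunit of complex I, was at 949 in controls at 4 hpf, 2083 in mutants at 6 hpf and 1248 in controls at 6 hpf. Together these RNAs made up 10.9% of all RPKM in mutants at 6 hpf and 10.1% and 10.2% at 2 and 4 hpf, against 7.02% to 7.09% in the 3 control tables. The higher share was thus present at every sampled age of the mutant. Quantile normalization, which sets the top values of all tables equal, brought the median to 0.00. Nuclear genes of the mitochondrial ribosome were higher in 9 and lower in 9 of 65 cases, with a median of -0.14. These shares were not far from the 11.5% higher and 17.7% lower of all kept genes.

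Lists of translation and RNA handling had medians near 0 on the deposited scale. Of 36 translation initiation genes, 3 were higher and 1 lower, with a median of 0.10. EIF4A2, a helicase that unwinds the 5' ends of mRNA, was at 3.64 and 42.0, with 52.6 in controls at 6 hpf. pabpc1b, a poly(A)-binding protein, was at 6.66 and 21.0, with 23.0 and 20.6 in mutants at 2 and 4 hpf and at most 11.8 in any control. Among 26 DEAD-box and related helicase genes, 3 were higher and 1, ddx3xb itself, was lower, with a median of 0.10. DHX9 was at 7.54 and 21.8, and DDX17 at 23.2 and 67.5. Proteasome genes were higher in 4 and lower in 0 of 37 cases, with a median of 0.14. Spliceosome genes were higher in 4 and lower in 0 of 25, with a median of 0.25. Over all kept genes 11.5% were higher and 17.7% lower as deposited, so the shares of higher genes in these lists were not far from the general one. Rescaled, 7 initiation, 7 helicase, 10 proteasome and 9 spliceosome genes were higher, and 1 helicase gene was lower. The medians were then 0.52, 0.52, 0.55 and 0.67, beside -0.01 and 17.3% higher over all kept genes. How little these lists differed thus depended on the scale. PRPF3, a splicing factor of the tri-snRNP, was at 8.88 in controls at 4 hpf and 28.7 in mutants at 6 hpf, with 28.2 and 31.8 in the younger mutants.

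Cell cycle genes stood near the younger control. Of 25, 2 were higher and 4 lower, with a median of -0.36 next to -0.35 for all kept genes. Egg-type cyclins and kinases were among the lower ones: CCNA1 was at 662 and 211 with 32.5 in controls at 6 hpf, and WEE2, an inhibitory kinase of oocytes, at 168 and 62.8 with 8.27. cdkn1ca, a cell cycle inhibitor, was higher at 20.3 and 49.7. Replication genes were higher in 3 and lower in 6 of 26 cases, shares not far from those of all kept genes, with a median of -0.55. The helicase subunits MCM3, at 5.28 and 30.1, and MCM6, at 11.4 and 35.5, were higher, and GMNN, the licensing inhibitor geminin, was lower at 414 and 189. Rescaled, the counts of replication genes were 3 higher and 0 lower, and those of cell cycle genes 7 higher and 2 lower, so the balance of both lists depended on the scale.

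Markers of damage and stress showed no block of higher genes. Of 19 damage response and apoptosis genes that passed the filter, of 20 found, 0 were higher and 4 lower as deposited, and 2 higher and 0 lower after rescaling. Over all kept genes the deposited shares were 11.5% higher and 17.7% lower. bbc3, the death effector Puma, was at 6.28 and 2.49. Of 20 integrated stress and unfolded protein genes that passed the filter, 2 were higher and 3 lower, with a median of -0.23. atf4b, the transcription factor of the integrated stress response, was at 9.93 and 63.9, but controls at 6 hpf held 118. PDIA4 and HSP90B1, chaperones of the endoplasmic reticulum, were at 57.4 and 23.3 and at 143 and 72.9. Heat shock genes had 1 higher member of 12, HSPB1, at 102 and 717, which was at 1686 in controls at 6 hpf. hsp70.1, the inducible chaperone, was at 1.42 and 0.26.

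Set between the control tables, the older mutant lay on the way from 4 to 6 hpf for most of the kept genes that controls changed by at least 1 log2. The median share covered was larger for genes that increase than for genes that decrease, but the filter bears on this contrast. For the 2402 genes that controls held at a higher level at 6 hpf, the mutant at 6 hpf had covered a median of 63.1% of the control difference on the log2 scale, with quartiles at 43.9% and 81.7%. For 5994 genes lower in controls at 6 hpf, it had covered a median of 47.1%, with quartiles at 30.9% and 65.2%. Rescaled, the medians were 58.2% and 36.7%, over 3958 and 3952 genes. After quantile normalization they were 57.8% and 42.8%, over 3259 and 4436 genes. The control value at 4 hpf enters both differences, and the control difference both chose the genes and is the divisor. These shares are thus a description. Of the increasing genes, 83.3% lay between the controls as deposited, 5.62% below the younger and 11.1% past the older one. Rescaled, these shares were 85.6%, 6.65% and 7.73%, and after quantile normalization 82.9%, 8.38% and 8.75%. The share past the older control thus depended on the scale. Of the decreasing genes, 90.8% lay between the controls and 4.30% above the younger one as deposited, and 85.9% and 10.1% when rescaled.

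Gene lists spread around these medians, and the same limit of the filter holds for their increasing members. Keratin genes had a median of 83.6% and ribosomal protein genes, with 60 increasing members, 75.5%. Lower values were found for neuroectoderm genes at 57.7%, mitochondrial ribosomal protein genes at 49.4% and proteasome genes at 46.4%. Among decreasing genes, maternal egg RNAs had a median of 47.3%, replication genes 48.6%, cell cycle genes 38.3% and cholesterol genes 34.7%. The 6 helicase genes of this class, ddx3xa among them, had covered 7.07%. Single genes of the same tissue could lie far apart, as HNF4A at 98.7%, fetub, a secreted protease inhibitor, at 54.5%, and apoa1a at 15.8% show for the yolk syncytial layer.

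**Figure D4:**
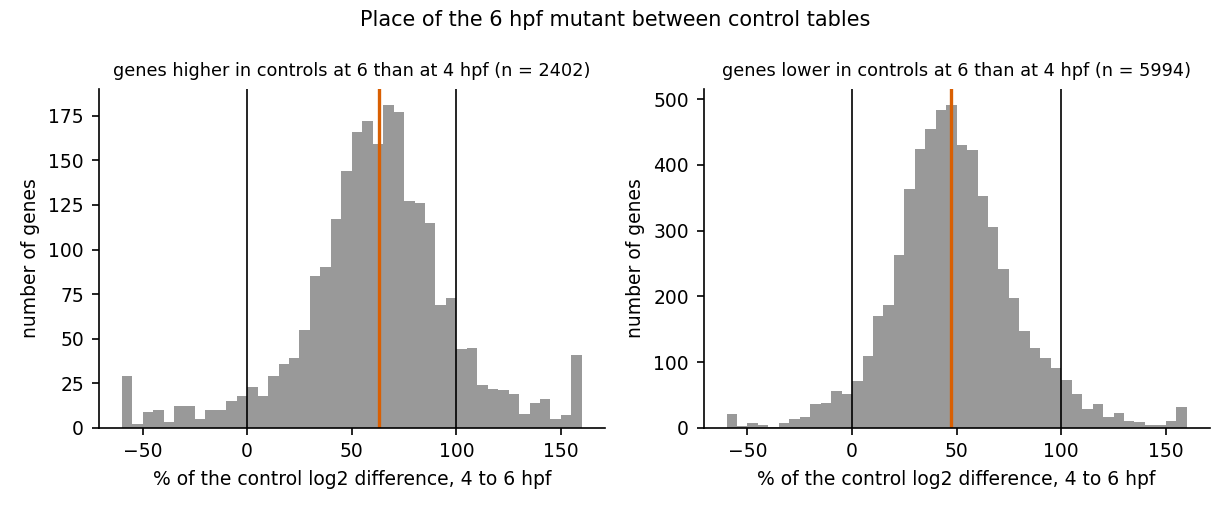
Share of the control log2 difference from 4 to 6 hpf that the mutant at 6 hpf had covered, in percent, for genes higher (left) and lower (right) in controls at 6 hpf; bars count genes, values beyond the axis range are put in the end bars, black lines mark both controls and the coloured line the median. The medians over kept genes are 63.1% and 47.1%, and most of these genes lie between the black lines.

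A level between control levels could be that of a control of some age, whereas a level outside all of them matched no sampled control. The mutant at 6 hpf was above all 3 control tables by at least 1 log2 for 179 genes, 1.16% of those kept, and below all 3 for 74, 0.479%. Of the 179, 75 had under 5 RPKM in the mutant, and of the 74, 16 had under 5 RPKM in the highest control. Rescaling gave 244 and 91 genes, of which 156 and 58 were shared with the deposited scale. Of the genes above the controls, 100 were at least 1 log2 higher in mutants at 6 than at 4 hpf, and 63 differed by less than 1 across the 3 mutant tables. Of the genes below the controls, 49 differed by less than 1 across the mutant tables. The value that chose the genes enters these counts.

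LMO2 (ENSDARG00000095019), a cofactor of blood and vessel progenitors, lay farthest above the controls among genes with a usable symbol and at least 5 RPKM. Of the 179 genes, 111 have no such symbol and are not named. It was at 0.28, 0.20 and 0.26 in controls at 2, 4 and 6 hpf and at 0.13, 0.15 and 24.6 in mutants. The other blood and vessel markers did not share this: the summed level of TAL1, gata1a and FLI1 was 0.42 in controls at 4 hpf and 0.36 in mutants at 6 hpf. mixl1 (ENSDARG00000069252), sebox, GSC and lft2, given above, were further genes whose mutant level was low at 4 hpf and past every control at 6 hpf. SOSTDC1, a secreted antagonist of BMP and Wnt whose symbol is on more than 1 ID, was at 2.20 in controls at 4 hpf, 6.22 at 6 hpf and 27.4 in mutants at 6 hpf. BIN2, a membrane-bending protein, was at 7.24, 3.11 and 29.0 in the same tables, and capn2b, a calpain protease, at 0.48, 1.14 and 6.94. In each of these genes the 2 younger mutant tables stayed at or below 6.96 RPKM.

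A different course was seen in genes that were high in mutants at every sampled age. GNB3, a G protein subunit of photoreceptors, was at 10.7, 10.6 and 11.9 in mutants at 2, 4 and 6 hpf and at 0.12, 0.38 and 0.051 in controls. DCXR, a carbonyl reductase, was at 61.6, 49.5 and 49.3 in mutants and 10.1, 10.1 and 8.25 in controls. CXCR3, a chemokine receptor, was at 9.99, 9.73 and 10.8 in mutants and 0.95, 1.70 and 0.35 in controls. In mutants these levels moved little with age, and in controls all 3 genes were lower at each sampled age. A gene with the symbol RRM2 (ENSDARG00000078069), a subunit of the enzyme that makes DNA building blocks, was at 388, 333 and 319 in mutants and 10.4, 20.7 and 10.9 in controls. Its symbol is on 2 IDs, and summed over both the levels were 736 in controls at 4 hpf and 688 in mutants at 6 hpf, so the total did not share the difference. col28a1a, a collagen, combined both courses, at 5.86, 6.41 and 24.9 in mutants and at most 1.21 in controls.

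**Figure D5:**
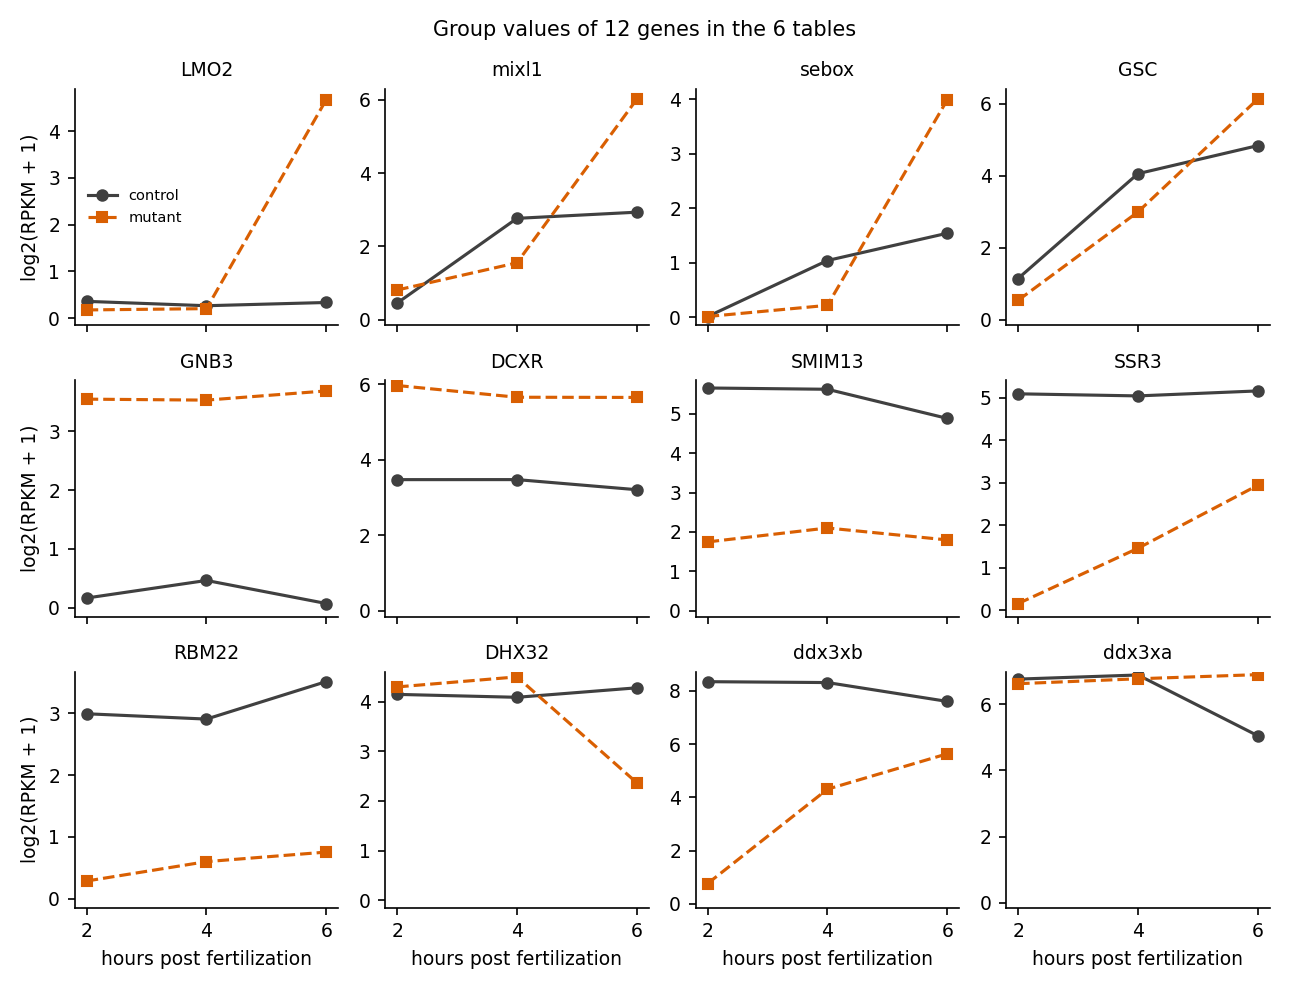
Group values of 12 genes as log2(RPKM + 1) at 2, 4 and 6 hpf in controls (circles, solid line) and mutants (squares, dashed line); each panel has its own y axis. LMO2, mixl1, sebox and GSC are high in mutants at 6 hpf, GNB3 and DCXR at every age, SMIM13 and RBM22 are low in mutants at every age, and DHX32 is low in mutants at 6 hpf.

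Below all controls, most named genes were low in mutants from 2 hpf on. SMIM13 (ENSDARG00000089204) was at 49.4, 48.2 and 28.5 in controls and 2.35, 3.28 and 2.47 in mutants. RBM22, a splicing factor, was at 6.97, 6.51 and 10.4 in controls and 0.22, 0.51 and 0.69 in mutants, and urahb, an enzyme of urate breakdown, at 26.6, 17.5 and 55.9 and at 0.35, 1.26 and 3.12. RRM2B, a second small subunit of the same reductase as RRM2, was at 27.1, 35.0 and 20.4 in controls and 9.81, 10.3 and 6.71 in mutants. These genes were low in the mutant whatever its age. SSR3, which sits beside the translocon of the endoplasmic reticulum, was at 33.1, 32.0 and 34.8 in controls and went from 0.11 and 1.74 to 6.67 in mutants, a course like that of ddx3xb. DHX32, a helicase-like gene whose symbol is on more than 1 ID, was the reverse case: mutants held 18.6 and 21.6 at 2 and 4 hpf, like the controls at 16.7 and 16.0, and 4.16 at 6 hpf, where controls had 18.4.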

How the data were processed

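Per the labels' protocols, total RNA of whole embryos was isolated in TRIzol, poly(A) RNA was selected on Dynabeads and libraries came from a KAPA stranded kit. Per the submitters' processing notes, the genome build was Zv9 and the tools were SAMtools 1.9, HISAT2 2.0.5, Trimmomatic 0.36 and cutadapt 1.13, whose roles are left unnamed. Not given in the sources used here are the read counter, the annotation, strand use and how replicates were combined. The authors deposited RPKM values in 6 tables, 1 per genotype and age, each with 1 value per gene for 2 samples.

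Each table was given to the group whose genotype and age its name states. Differences are of log2(RPKM + 1), kept genes have an RPKM of at least 1 in either table, and the size threshold is 1 log2. The planned limma model and the replicate block need values per library and were not run. Rescaling trimmed 30% of log ratios and 5% of abundances at each end. Reads of single libraries were solved from low values under a plain mean of 2 libraries. The smallest fitting gene length was taken. Such a length was found for 9676 genes, against 146 after the values were moved at random. Depth is fixed up to a common factor only, and the reads served for the spread alone. The procedures were tested on simulated data. For the recovery of reads these were plain means of 2 libraries of known depth. That simulation therefore tested neither the depths nor the assumption of a plain mean. Precision is limited by the 2 samples per group; the series text calls them biological replicates.

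Symbols came from a name table that matched 21939 of 33737 gene IDs, and are spelled as there, often as the human gene. Of 935 list entries, 599 matched. Lists share members. Named genes were ddx3xb and ddx3xa, the 15 highest and lowest differences and the 12 farthest above and below all controls (non-placeholder symbol, at least 5 RPKM in the higher table), and list members with the 6 largest differences or others named as contrast. The comparison, the 41 lists and the rules were chosen with earlier results of these data known, so the lists are no independent support. Contrast members, and the genes drawn in figures, were chosen after their values were seen. Alternatives tried were trimmed-mean rescaling, quantile normalization, centring, a pseudocount of 0.1, no filter, a filter of 5 RPKM and, added after the data were seen, leaving out symbols on more than 1 ID. Some genes are not reported here. Python 3.11.15, numpy 2.4.6, pandas 2.3.3, numba 0.67.0 and matplotlib 3.10.9 were used.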

Additional observations from a re-analysis of the deposited data

How the results depend on the processing

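Trimmed-mean rescaling changed the higher and lower counts to 2678 and 1249, from 1776 and 2737. Quantile normalization gave 1780 lower genes and 122 below all controls, centring on the median 1111 lower genes. A pseudocount of 0.1 gave 378 genes above and 233 below all controls, and a filter of 5 RPKM 1175 higher genes, 104 above and 47 below all controls. Without any filter the 4 counts had to equal those of the main setting. A difference of 1 in log2(RPKM + 1) needs at least 1 RPKM in the higher group, so this setting is no check of the counts. Without symbols on more than 1 ID the 4 counts were 1609, 2453, 168 and 64. Of 251 named genes, none past the threshold changed direction, and 6 below it, all within 0.35 of 0, changed sign under at least 1 alternative; 22 dropped below the threshold and 26 passed it under rescaling. Without a filter the list medians of blood and vessel genes and of amino acid transporters turned to -0.0275 and -0.046, and those of keratin, segmentation clock, posterior and organizer genes dropped to 0.78, 0.55, 0.19 and 0.98. No paired analysis was possible because each table holds 1 value for its 2 samples, and leaving out a replicate was not run for the same reason. The cause of these shifts was not tested. Counts by size are not counts of differences beyond replicate error. At 20 to 150 reads per group, libraries of the same group often differed by 1 in plain log2 ratios, without the added 1 of the counts.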

Other observations

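Other gene groups were read in the same comparison of mutants at 6 hpf with controls at 4 hpf. Over all kept genes 11.5% were higher and 17.7% lower. Of 11 Wnt genes that passed the filter, 4 were higher and 1 lower, with a median of 0.56. The ligand wnt11f2, which guides cell movements of gastrulation, was at 61.4 and 152, and the antagonist dkk1b at 10.7 and 24.5, both above the 112 and 14.7 of controls at 6 hpf. LEF1, a nuclear effector of Wnt signals, was lower at 31.2 and 14.6. Adhesion genes were higher in 3 and lower in 0 of 12 cases. CDH2, the cadherin of neural and mesodermal cells, was at 4.59 and 18.2, and the proteoglycan GPC4 at 11.9 and 42.7, with 59.2 and 59.4 in controls at 6 hpf. HAS2, which makes hyaluronan, was at 26.5 and 17.3.

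Metabolic groups stayed near the median of all genes. Cholesterol genes had a median of -0.72 and 1 lower gene of 12, MVK, mevalonate kinase, at 8.42 and 2.84; their median in controls at 6 hpf was -1.54. Of 12 glycolysis and gluconeogenesis genes, 4 were higher and 1 lower; the lower one, pgam1a, a phosphoglycerate mutase, differed by -1.16 on the log2 scale. DNMT1, the maintenance DNA methyltransferase, was at 117 and 36.6, with 278 in controls and 231 in mutants at 2 hpf. hmga1a, a chromatin protein, was at 801 and 1917, with 4287 in controls at 6 hpf. casp23, a caspase, was at 14.0 and 25.2, with 50.3 and 40.0 in mutants at 2 and 4 hpf and 18.3 in controls at 2 hpf.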
